A study of Mus musculus with 2 samples.

Results

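Microglia, the resident macrophages of the brain parenchyma, were picked here by their own transcripts from 2 single-cell libraries of whole brain, and only those with few transcripts of the chemokines Ccl3 and Ccl4 were kept. A cell was a member when it had at least 1000 UMIs (unique molecular identifiers, each standing for 1 captured transcript), 500 or more genes and no more than 10% of its UMIs from mitochondrial genes. Its UMIs of P2ry12, Tmem119, Siglech and Sall1 had to sum to at least 3, those of the macrophage genes Mrc1, Pf4 and Cd163 to at most 1, those of the vascular genes Cldn5 and Rgs5 to at most 1, and those of Ccl3 and Ccl4 to less than 5. This gave 1798 members among 36026 barcodes, 747 of 8812 filtered cells in 1 library and 1051 of 10349 in the other. Both libraries came from adult mice with a LacZ allele at the Il34 locus, 1 labelled IL34LacZ/+ (called heterozygous-labelled here) and 1 labelled IL34LacZ/LacZ (homozygous-labelled), so no library without the LacZ allele was analysed here. The brains had been sorted by surface protein for microglia (CD11b+ F4/80hi), border-associated macrophages (CD11bhi F4/80+), endothelial cells (CD31+), astrocytes (ACSA-2+), and mural cells and fibroblasts (CD13+ and/or CD140a+ O4-), and the sorted cells were run with the 3′ v3.1 chemistry of 10x Genomics. How many animals stand behind a library, and their sex and age in weeks, is not stated in the labels.

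Microglia depend on signalling through the receptor CSF1R, which has a pair of ligands, CSF1 and IL-34. In the brain IL-34 is made mainly by neurons, most of all in forebrain regions, and mice lacking it are known to have fewer microglia in those regions. Microglia are told from other macrophages by a set of genes that includes the ADP receptor P2ry12, the surface protein Tmem119, the lectin Siglech and the transcription factor Sall1, and TGF-beta signalling and the transcription factor PU.1 help to maintain that set.

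The promoters of 4 microglia genes whose values recur below are shown because they differ in a motif of the ETS family, to which PU.1 belongs. Each is 250 bases before to 50 bases after the RefSeq start on GRCm38.p6, printed 5′ to 3′ on the gene's own strand: P2ry12 at chr3:59262936-59263235 (minus), Fcrls at chr3:87263475-87263774 (minus), Siglech at chr7:55767934-55768233 (plus) and Crybb1 at chr5:112255570-112255869 (plus). Capitals mark GGAAGT or its reverse complement ACTTCC.
P2ry12: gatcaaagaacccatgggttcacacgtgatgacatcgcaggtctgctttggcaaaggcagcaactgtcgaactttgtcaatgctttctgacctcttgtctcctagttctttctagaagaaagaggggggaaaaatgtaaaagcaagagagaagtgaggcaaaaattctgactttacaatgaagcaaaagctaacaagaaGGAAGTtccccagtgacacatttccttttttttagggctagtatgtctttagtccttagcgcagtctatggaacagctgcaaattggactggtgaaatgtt
Fcrls: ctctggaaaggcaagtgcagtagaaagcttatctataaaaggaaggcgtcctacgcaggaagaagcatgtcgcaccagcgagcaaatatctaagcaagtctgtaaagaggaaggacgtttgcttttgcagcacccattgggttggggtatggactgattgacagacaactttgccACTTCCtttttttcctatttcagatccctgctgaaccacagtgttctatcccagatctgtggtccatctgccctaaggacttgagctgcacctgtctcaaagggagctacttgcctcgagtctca
Siglech: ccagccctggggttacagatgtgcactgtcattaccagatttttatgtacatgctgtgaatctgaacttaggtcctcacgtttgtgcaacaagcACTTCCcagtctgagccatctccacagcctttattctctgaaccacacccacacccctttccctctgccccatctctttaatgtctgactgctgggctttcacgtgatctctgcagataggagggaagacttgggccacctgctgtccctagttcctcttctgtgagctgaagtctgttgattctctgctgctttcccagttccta
Crybb1: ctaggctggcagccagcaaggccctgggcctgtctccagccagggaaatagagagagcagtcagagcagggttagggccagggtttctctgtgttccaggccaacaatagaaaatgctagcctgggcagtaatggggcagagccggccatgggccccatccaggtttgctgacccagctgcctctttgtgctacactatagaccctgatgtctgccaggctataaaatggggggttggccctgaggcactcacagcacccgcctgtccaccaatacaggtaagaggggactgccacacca
The motif was searched on both strands. It begins 51 bases before the start in P2ry12, 75 bases before it in Fcrls and 156 bases before it in Siglech, and these letters are not in the Crybb1 window. Of all 32851 RefSeq windows of this length 23.8% held it, and 26.5% of the 27025 genes with a window did. Of the 29 genes of microglial identity 20 had a window and 9 of these held it (45.0%), those of Ctss, Fcrls, Golm1, Gpr84, Ltc4s, P2ry12, Sall1, Siglech and Tgfbr1. A match is a description of the letters and not a binding site.

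With 1 library for each genotype there were no replicates, so no p-value is given and the genotypes cannot be told apart from the libraries. Levels are CPM, the UMIs of a gene summed over the cells of a group and scaled to 1000000, with exact Poisson 95% intervals. The ratio divides the homozygous-labelled by the heterozygous-labelled level and has an exact binomial 95% interval, and values in pairs are given in the order heterozygous-labelled, homozygous-labelled. Both intervals cover counting error only. A gene with 100 or more UMIs in the libraries together is called measured, and it is called higher or lower where its ratio is 1.5 or more (or the inverse or less) and the interval leaves out 1. Since the members were chosen by measured UMIs, the levels of the genes in the rule are a description.

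The members carried 3346570 and 5184110 UMIs, with medians of 2907 and 3311 UMIs and 1456 and 1610 genes per cell. Mitochondrial UMIs had a median of 3.20% and 3.14%. Of the cells that met every criterion but the chemokine limit, 89.1% (95% binomial interval 86.8 to 91.2) and 88.0% (86.0 to 89.8) were members. Most members had no chemokine transcript at all: 72.2% and 69.4% had 0 UMIs of Ccl3 and Ccl4. Just inside the chemokine limit, at 4 UMIs, lay 18 and 15 cells, and just outside it, at 5 UMIs, 20 and 17. At the marker limit, 41 and 95 members had exactly 3 marker UMIs, and 133 and 240 cells just outside had 2. No barcode was shared between the members of the libraries, against 30 shared among all filtered cells.

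Il34 itself was near the floor in the members, with 11 UMIs (3.29 CPM) and 21 UMIs (4.05 CPM), a ratio of 1.23 (0.568 to 2.83). It was looked at as the targeted gene. These cells are not its usual source, so the value does not check the labels.

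The members were not one kind of cell. Clustering them gave 11 subclusters. Subclusters 1, 2 and 5 had no marker of another cell type among their leading genes, red blood cell markers aside. Their summed levels of the 29 identity genes were 118361, 114440 and 106814 CPM. The other 8 had at least 2 markers of another cell type among their leading genes, with identity levels from 8138 to 88835 CPM. Subcluster 3 was led by Bglap, Bpifa1, Bglap2, Krtdap and Ibsp, genes of bone and epithelium (69.9% of the Bglap UMIs lay in 1 cell), and had 3 fibroblast markers among its leading genes, with fibroblast markers at 8908 and 5337 CPM. Subcluster 7 was led by Ttr, Sostdc1, Prlr, Enpp2 and Kcnj13 of the choroid plexus. Subcluster 4 was led by S100a8, S100a9, Camp, Ngp and Lcn2, the granule and calgranulin genes of neutrophils. The MHC class II genes H2-Eb1 and H2-Aa were also among its 10 leading genes, and its identity level was 58609 CPM. Subcluster 9 was led by the endothelial genes Igfbp3, Emcn, Plvap, Flt1 and Slco1a4. Ciliated-cell genes (Nnat, Tmem212, Ccdc153, Rarres2, Fam183b) led subcluster 8, and Slc7a11, Slc6a13, Edn3, Apod and Vtn led subcluster 10. Subcluster 11, of 8 cells, was led by oligodendrocyte genes. Subcluster 6, with Gria2, Snhg11, Trank1, Arpp21 and Snap25 on top, rests on only 2 neuronal markers and is left unnamed.

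**Figure D1:**
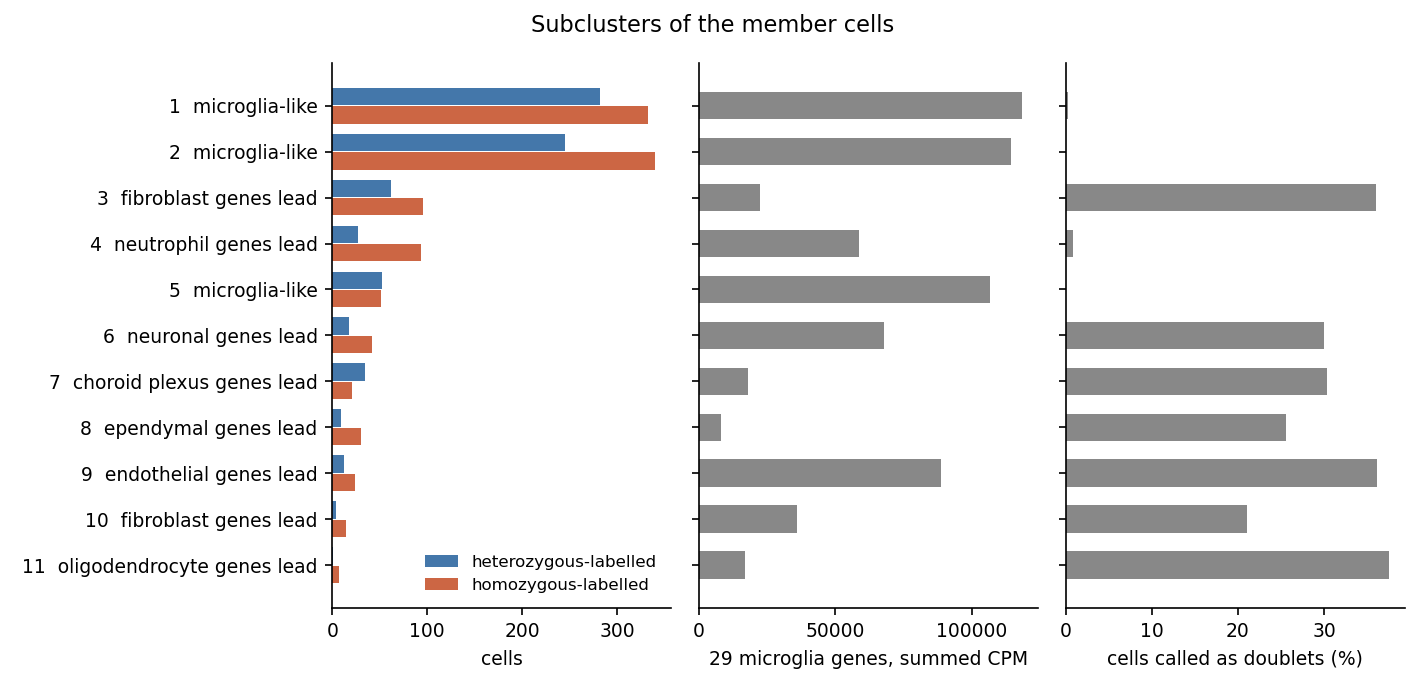
Cells of each library (left), summed CPM of 29 microglia identity genes (middle) and percent of cells called as doublets by Scrublet (right) in the 11 subclusters of the members. Subclusters 1, 2 and 5 stand highest for the identity genes with almost no doublet calls. Most doublet calls lie in the other subclusters, of which subcluster 4 has few (0.833% of its cells).

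By these markers the label microglia held for subclusters 1, 2 and 5, called microglia-like here, which held 579 members (77.5%) in the first library and 723 (68.8%) in the second. These cells had a median of 2473 and 2863 UMIs and 1 doublet call in each library. The remaining 168 and 328 members had 6595 and 5865.5 UMIs, mitochondrial shares of 6.10% and 5.11%, and doublet calls in 27.4% and 23.5% of cells, and they carried 51.5% and 55.9% of all the members' UMIs. Depth, mitochondrial share and doublet calls thus move with the split as pooled, and their part in it was not tested. Single subclusters differed from the pooled values. Subcluster 4 had 1 doublet call in 120 cells, a median of 3987.5 UMIs and a mitochondrial share of 3.42%. Subclusters 6, 9 and 10 had medians of 3156, 2506 and 2962 UMIs. A low marker sum moved with the split too: of the members with 3 to 5 marker UMIs, 104 and 181 cells, only 42 and 51 were microglia-like. Subcluster 1 is microglia-like by its identity genes, but 4 haemoglobin genes, the oxygen carriers of red blood cells, stand among its top genes (Hbb-bs, Hbb-bt, Hba-a1 and Hba-a2), so key genes are also given by subcluster. Subcluster 2 was led by Hspa1b, Hbb-bt, Fcrls, Vav1 and Slc2a5, and subcluster 5 by the immediate-early and stress genes Atf3, Fam71a, Tnfaip3, Dusp1 and Junb.

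Taken over all members, 4 of 8 MHC class II genes, 9 of 14 interferon response genes and 8 of 26 disease-associated genes measured were called higher in the homozygous-labelled library, and 0 of 12 class I genes. Of 8993 genes with enough UMIs, 666 were called higher (7.41%) and 163 lower (1.81%), and the median log2 ratio of all genes was 0.07. Scaled by TMM, which allows for a few very abundant transcripts, 480 were higher and 248 lower and that median was -0.0352. MHC class II genes, which load peptides for helper T cells, had the widest summed ratio of the 20 lists: 4 of 8 measured were called higher and none lower, and their summed level was 786 CPM against 1741 CPM, a ratio of 2.22 (2.12 to 2.32). Cd74, the class II invariant chain, stood at 241 CPM (224 to 258) and 702 CPM (679 to 725), and 10.9% of its UMIs came from 1 cell. H2-Aa was at 99.2 and 293 CPM and H2-Eb1 at 69.0 and 219 CPM, with 12.8% and 16.4% of their UMIs in 1 cell. H2-Ab1 read 76.5 and 225 CPM, with 11.3% of its UMIs in 1 cell. The ratios of these 4 genes lay close together, from 2.92 to 3.17.

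Interferon response genes had 9 of 14 measured called higher and none lower, with a summed ratio of 1.56, and Isg15, a ubiquitin-like antiviral protein, read 18.8 and 59.0 CPM with 16.0% of its UMIs in 1 cell. In the microglia-like members alone its log2 ratio was -0.0274. Among the disease-associated microglia genes, 8 of 26 were called higher and none lower (median log2 ratio 0.29, summed ratio 1.10). Apoe, the lipid carrier, was at 1597 CPM (1554 to 1640) and 2341 CPM (2299 to 2383), and lysozyme (Lyz2), which passed the call, at 269 and 571 CPM. Spp1 (osteopontin) read 49.3 and 174 CPM, but 59.7% of its UMIs lay in 1 cell, and with a marker sum of at least 5 its log2 ratio was -0.0464. The lectin Clec7a was at 9.86 and 28.4 CPM, the receptor Axl at 16.1 and 33.8 CPM, and the growth factor Csf1 at 14.3 and 26.0 CPM. Apoe, at a ratio of 1.47, did not pass the call.

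Most class II and interferon transcripts of the members were outside the microglia-like cells. The other-led subclusters held 68.2% (66.4 to 70.0) and 86.1% (85.3 to 86.8) of the members' class II UMIs, and subcluster 4 alone held 47.7% and 69.1%. For interferon genes the other-led share was 65.9% and 79.5%, and for disease-associated genes 38.7% and 49.96%, against 19.3% and 24.6% for the identity genes. Subcluster 4 had 27 and 93 cells, with class II genes at 9455 and 12340 CPM and 8 neutrophil markers at 7758 and 26661 CPM. It also had monocyte and dendritic cell markers at 1712 and 1571 CPM, which were 33.3% and 54.8% of the members' UMIs of those markers. Few cells carried the neutrophil markers. With each other-led cell thinned to 1000 UMIs, 5% of the cells held 93.8% and 97.5% of the neutrophil UMIs, and the median cell had 0. Over all members, neutrophil markers summed to 413 and 2784 CPM, choroid plexus markers to 63166 and 27062 CPM, and red blood cell markers to 204 and 6862 CPM. Genes with wide ratios included transcripts of such cells. Ngp, a neutrophil granule gene, read 4.78 and 205 CPM with 38.1% of its UMIs in 1 cell. Bglap (osteocalcin) read 672 and 0.193 CPM with 69.9% in 1 cell, and Ttr, the choroid plexus thyroxine carrier, 60979 and 25586 CPM. What part these other transcripts have in the members' differences was not tested, and the microglia-like members are given alone next.

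Within the microglia-like members few genes differed. Of 5356 genes measured, 58 were called higher (1.08%) and 62 lower (1.16%) in the homozygous-labelled library, and the median log2 ratio was -0.03. The class II, interferon and disease-associated lists had summed ratios nearer to 1 than over all members, as the plot of gene lists shows, and no gene of those 3 lists was called in either direction. The split was made on the same transcripts, and H2-Eb1 and H2-Aa were among the 10 leading genes of subcluster 4, which is left out here. The class II ratio nearer to 1 is therefore a description. H2-Aa, H2-Eb1 and H2-Ab1 also had too few UMIs in the microglia-like members to be measured, so they could not be called.

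**Figure D2:**
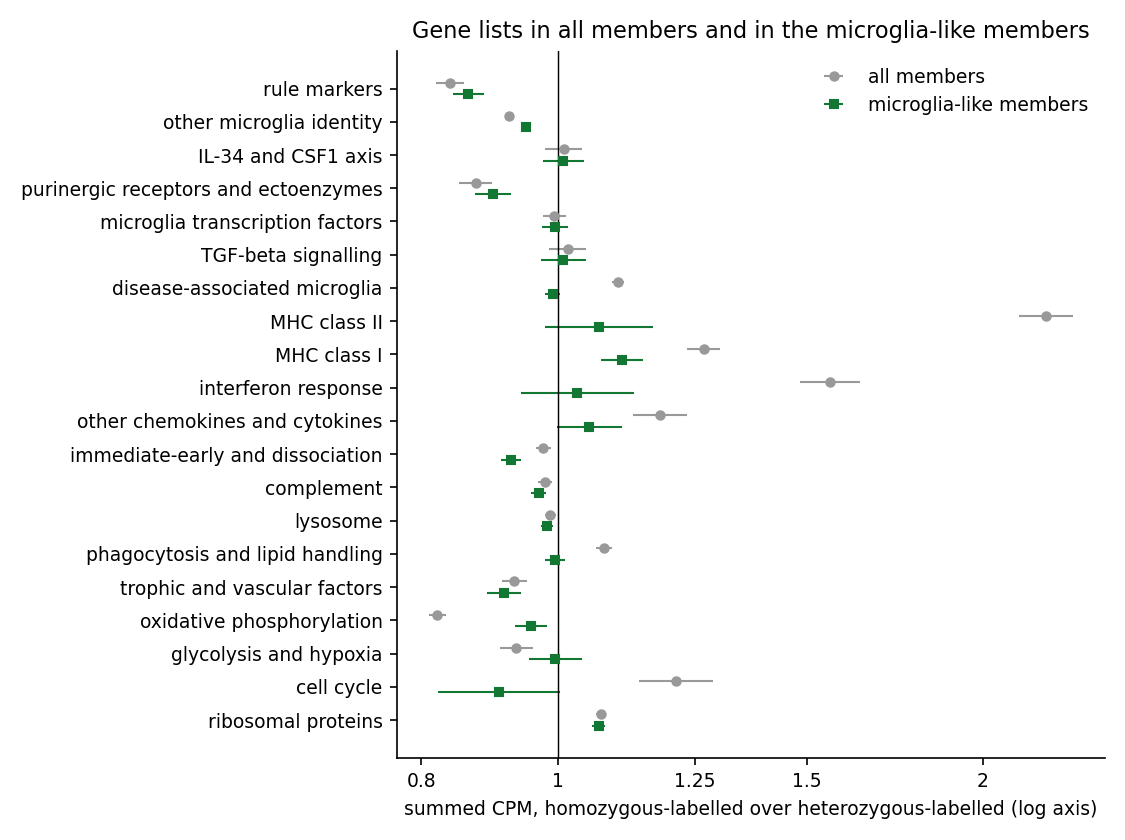
Ratio of summed CPM, homozygous-labelled over heterozygous-labelled, for 20 gene lists (log axis), with 95% counting intervals, in all members (grey) and in the microglia-like members (green). MHC class II lies at 2.22 in all members and 1.07 in the microglia-like members, and interferon response at 1.56 and 1.03.

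Of the genes that define microglia, Crybb1 alone was called, as lower in the homozygous-labelled library. The 4 genes of the rule, which are a description only, summed to 6718 and 5802 CPM, a ratio of 0.864 (0.842 to 0.886). P2ry12 was at 3099 CPM (3014 to 3186) and 2639 CPM (2573 to 2706), with a ratio of 0.852 (0.820 to 0.884). Siglech read 1938 and 1664 CPM (0.859, 0.819 to 0.900) and Tmem119 1320 and 1127 CPM (0.854, 0.806 to 0.905). Sall1 stood apart, at 361 and 372 CPM (1.03, 0.927 to 1.15), with an interval that holds 1.

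The 25 other identity genes, which the rule did not use, gave a summed level of 112082 and 106442 CPM, a ratio of 0.9497 (0.944 to 0.955). 1 was called lower and none higher, 16 had an interval below 1 and 2 an interval above it, where over 5355 genes 413 and 289 did, and their median log2 ratio was -0.14 against -0.03 for all genes. The called gene was Crybb1, a beta-crystallin gene that microglia express, at chr5:112255815-112269585 on GRCm38. It read 334 CPM (306 to 363) and 208 CPM (190 to 227), a ratio of 0.623 (0.549 to 0.706), and had a UMI in 50.6% and 38.3% of cells, at median depths of 2473 and 2863 UMIs. In the border-associated macrophages, at 3172 and 3641 UMIs, it was in 9.004% and 8.09% of cells, at 29.9 and 25.8 CPM (0.865, 0.692 to 1.08). Over 11 other settings the Crybb1 log2 ratio lay between -0.76 and -0.62. No cell held more than 0.983% of its UMIs.

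Other identity genes were lower by less than the 1.5-fold limit. Ecscr, a small membrane protein of endothelium and microglia, was at 424 and 305 CPM (0.720, 0.647 to 0.801). The fructose transporter Slc2a5 read 242 and 192 CPM (0.794, 0.691 to 0.912), and the Fc receptor-like gene Fcrls 1822 and 1465 CPM (0.804, 0.765 to 0.845). These genes, Slc2a5 excepted, were picked after their values were seen. The matricellular gene Sparc was at 3720 and 3123 CPM (0.839, 0.811 to 0.869). Cystatin C (Cst3), the most abundant of the set, read 64752 and 61930 CPM (0.956, 0.949 to 0.964). Against this drift, cathepsin S (Ctss) was higher, at 5102 and 5878 CPM (1.15, 1.12 to 1.18). The fractalkine receptor Cx3cr1 was level at 5528 and 5566 CPM (1.01, 0.980 to 1.03).

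**Figure D3:**
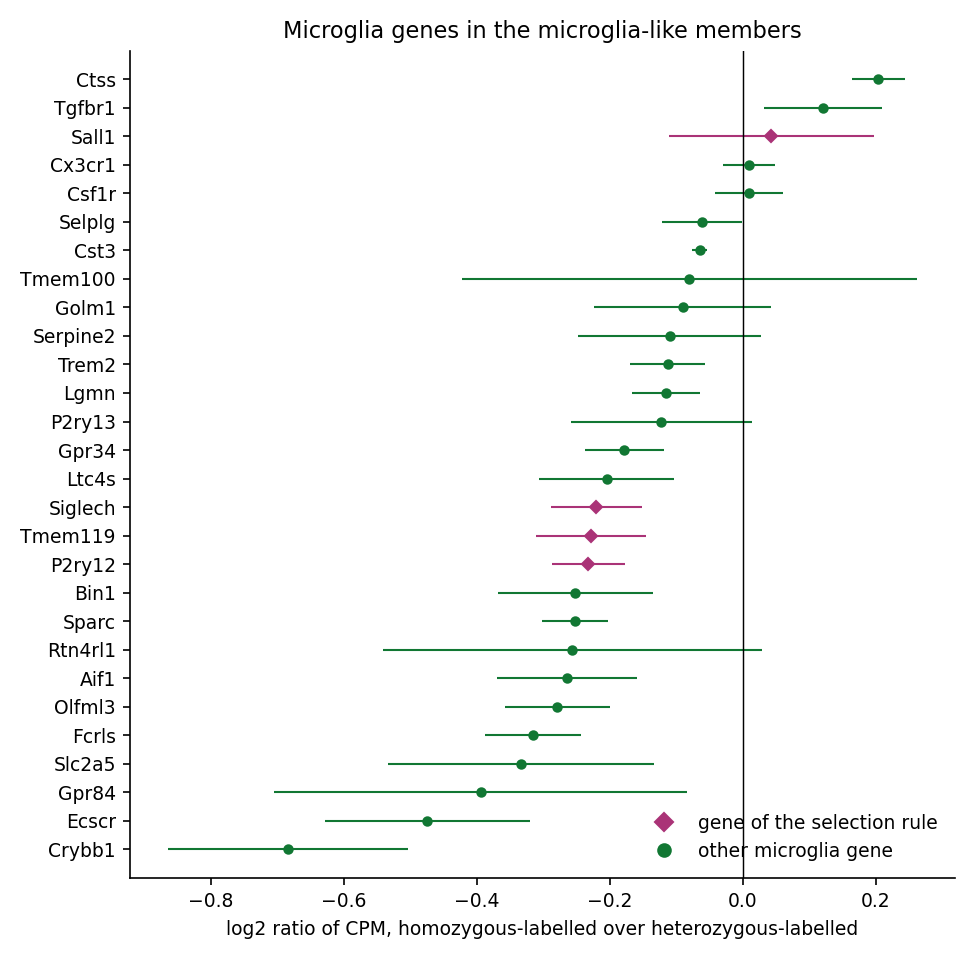
Log2 ratio of CPM, homozygous-labelled over heterozygous-labelled, with 95% counting intervals, for identity genes in the microglia-like members (diamonds, the 4 genes of the selection rule). Crybb1 lies lowest and Ctss highest, and most intervals lie left of 0.

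The 3 microglia-like subclusters did not all show this. The P2ry12 ratio was 0.805 (0.757 to 0.856) in subcluster 1, 0.856 (0.813 to 0.902) in subcluster 2 and 0.988 (0.875 to 1.12) in subcluster 5, the smallest. Crybb1 gave 0.659 (0.531 to 0.818), 0.568 (0.479 to 0.673) and 0.815 (0.545 to 1.22) in the same order. Fcrls gave 0.828, 0.780 and 0.848. Siglech, of the rule, gave 0.861, 0.853 and 0.839. The 25 identity genes together gave 0.883, 0.981 and 1.02. The Crybb1 and Fcrls ratios were below 1 in each subcluster, with an interval that holds 1 for Crybb1 in subcluster 5. The identity sum was furthest from 1 in subcluster 1. Red blood cell markers stood at 362 and 19881 CPM there and at 273 and 11394 CPM in subcluster 2, and their part was not tested.

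The lower calls with the widest ratios were of sparse genes. Gp9, platelet glycoprotein IX, read 57.3 CPM (46.2 to 70.2) and 25.8 CPM (19.7 to 33.3), a ratio of 0.451 (0.320 to 0.631) from 93 and 59 UMIs. The tetraspanin-like Upk1b was at 47.4 and 20.6 CPM (0.434, 0.295 to 0.631) and the signalling scaffold Bank1 at 70.2 and 32.8 CPM (0.467, 0.345 to 0.631). By subcluster 1, 2 and 5, Gp9 gave ratios of 0.331, 0.480 and 0.761, Upk1b 0.331, 0.464 and 0.730, and Bank1 0.401, 0.544 and 0.326. All 3 genes were below 1 in each subcluster. Prkag1, a subunit of the energy sensor AMPK, read 38.8 and 16.6 CPM (0.429), the phosphatase inhibitor Ppp1r14b 122 and 77.5 CPM (0.635), and the calcium-binding Cib1 91.1 and 56.4 CPM (0.619). In border-associated macrophages the same comparison gave 0.932 (0.836 to 1.04) for Bank1 and 1.02 (0.877 to 1.17) for Cib1, while Gp9 and Upk1b had under 15 UMIs in each library there.

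On the other side, the kinase Rps6ka5 was called higher at 16.6 and 44.6 CPM (2.68, 1.74 to 4.27). The kinase Tec read 31.4 and 65.6 CPM (2.09, 1.51 to 2.93), and the stress-response gene Niban1 33.9 and 62.6 CPM (1.85, 1.34 to 2.57). Snhg11, a long non-coding RNA of neurons, was also called higher, at 16.0 and 42.9 CPM. In the border-associated macrophages it read 139 and 160 CPM.

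Transcripts of red blood cells and choroid plexus were also present. Hbb-bs, the beta-globin gene, was at 188 and 7128 CPM in the microglia-like cells, with 22.3% of its UMIs in 1 cell. In the homozygous-labelled library 6 of the 723 cells had over 5% haemoglobin UMIs and together held 96.6% of them, against 0 of 579 cells in the other. Without such cells the log2 ratio of Hbb-bs was 0.43 rather than over 5, and 64 genes were called higher and 48 lower. Ttr read 4091 and 2392 CPM and was in 100% and 99.7% of microglia-like cells. In the border-associated macrophages Ttr read 23173 and 18482 CPM, so its transcripts were in both kinds of macrophage, lower in the homozygous-labelled library in each. Few cells carried the higher macrophage level. With each cell thinned to 1000 UMIs, 5% of the macrophages held 58.0% and 68.8% of their choroid plexus UMIs. The median cell had 4 and 2 such UMIs in both kinds. Summed markers of other types in the microglia-like cells were 332 and 305 CPM for border-associated macrophages, 665 and 660 CPM for endothelium and 164 and 190 CPM for neutrophils. Mural markers summed to 28.9 and 54.7 CPM and neuronal markers to 41.3 and 77.0 CPM. T and NK cell markers were near 0, at 1.85 and 1.75 CPM.

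The CSF1 receptor itself was level. Csf1r, through which both CSF1 and IL-34 act, read 3182 CPM (3096 to 3270) and 3203 CPM (3130 to 3277), a ratio of 1.01 (0.971 to 1.04). In subclusters 1, 2 and 5 its ratio was 1.09, 0.986 and 0.869. The granulocyte receptor Csf3r was at 213 and 199 CPM (0.934, 0.811 to 1.08). Of the 8 genes of this axis 4 were measured and none was called.

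Genes that microglia use to sense nucleotides were slightly lower as a group, with none called of 7 measured, at 4749 and 4269 CPM (0.899, 0.872 to 0.926). That sum is mostly P2ry12, a gene of the rule. P2ry13, its close relative, gave 481 and 442 CPM (0.919, 0.836 to 1.01), and the ATP-degrading ectoenzyme Entpd1 563 and 581 CPM (1.03, 0.947 to 1.12). Among 19 measured transcription factors none was called and the summed ratio was 0.995. Mef2c was at 1521 and 1581 CPM (1.04, 0.988 to 1.10). For TGF-beta signalling 11 genes were measured with none called and a summed ratio of 1.01. Its receptor Tgfbr1 gave 1.09 (1.02 to 1.16), and the inhibitory Smad7 0.850 (0.762 to 0.949).

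Disease-associated genes, the set that microglia raise around plaques and dying cells, were close to level in the microglia-like cells. None of 19 measured was called, 5 had intervals above 1 and 5 below, and the sum was 26062 and 25838 CPM (0.991, 0.979 to 1.004). Apoe was at 871 and 971 CPM (1.11, 1.04 to 1.19), but it went different ways by subcluster: 1.30 (1.16 to 1.46) in subcluster 1, 1.28 (1.16 to 1.42) in subcluster 2 and 0.623 (0.528 to 0.734) in subcluster 5, a difference that was not tested. Lyz2 read 329 and 370 CPM (1.13, 1.01 to 1.26), and cathepsin D (Ctsd) 5644 and 5155 CPM (0.913, 0.889 to 0.939). Clec7a and Axl, under the 100-UMI limit, had 15 and 71 UMIs and 9 and 40 UMIs. Clec7a gave 3.36 (1.91 to 6.32), with 19.8% of its UMIs in 1 cell, and Axl 3.16 (1.51 to 7.40), with 10.2% in 1 cell.

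For class II genes the microglia-like sum was 515 and 550 CPM (1.07, 0.979 to 1.17), with none of 5 measured genes called. H2-Aa, H2-Eb1 and H2-Ab1, called higher over all members, had too few UMIs here to be measured (59, 44 and 83). They read 9.85 and 18.8, 5.54 and 15.3, and 16.0 and 24.9 CPM, each higher in the homozygous-labelled library on few UMIs. H2-DMa is the largest part of the sum, which therefore does not show whether these genes were level. Cd74 was at 47.4 and 68.3 CPM (1.44, 1.09 to 1.92), the class II chaperone gene H2-DMa at 251.3 and 261 CPM (1.04), and H2-DMb1 at 97.9 and 75.7 CPM (0.773, 0.620 to 0.965). Class I genes, which display peptides from inside the cell, summed to 3342 and 3710 CPM (1.11, 1.07 to 1.15) with none of 10 called. B2m, the class I light chain, read 1624 and 1923 CPM (1.18, 1.13 to 1.24). In the border-associated macrophages B2m gave 1.14 (1.11 to 1.18) and Cd74 1.49 (1.46 to 1.53), so both genes were higher in sum in each kind of macrophage. Few macrophages carried most class II UMIs. With each cell thinned to 1000 UMIs, 30.6% and 36.8% of them had 1 or more, and 5% of them held 67.9% and 58.2%. What part the share of such cells has in the Cd74 ratio was not tested. Interferon genes summed to 482 and 497 CPM (1.03, 0.941 to 1.13) with none of 5 measured called, Bst2 (tetherin) at 169 and 187 CPM and Ifitm3 at 57.9 and 62.6 CPM. In the border-associated macrophages the interferon list was lower in the homozygous-labelled library, with a summed ratio of 0.796 (0.781 to 0.810). There 11 of 24 measured genes were called lower and none higher.

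Of 13 other chemokine and cytokine genes, Tnfsf13b, which encodes the B-cell factor BAFF, was called higher at 24.6 and 38.1 CPM (1.55, 1.05 to 2.31). Ccl12 read 166 and 176 CPM and Ccl6 161 and 171 CPM, each with a ratio of 1.06 (0.904 to 1.24). As a description, since the rule limits them, Ccl3 was at 85.6 and 86.2 CPM and Ccl4 at 85.0 and 72.6 CPM. Complement genes had none of 10 called and a summed ratio of 0.969. The C1q chains, which tag material for engulfment, were at 9145 and 8671 CPM for C1qa (0.948), 7911 and 7558 CPM for C1qb (0.955) and 6889 and 6771 CPM for C1qc (0.983). The lipid receptor Trem2 gave 2785 and 2576 CPM (0.925, 0.890 to 0.962) and its adaptor Tyrobp 3297 and 3176 CPM (0.963, 0.930 to 0.998). In the border-associated macrophages C1qa gave 0.911 and Trem2 0.849, on the same side of 1. Lysosomal genes, 30 of 30 measured with none called, had a sum of 40869 and 40151 CPM (0.982, 0.973 to 0.992). Phagocytosis and lipid genes, 20 of 25 measured with none called, gave a summed ratio of 0.995.

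Immediate-early genes, which tissue dissociation is known to raise, were lower in sum at 16448 and 15232 CPM (0.926) with none of 23 called. Jun was at 3177 and 2607 CPM (0.821, 0.791 to 0.852). It gave 1.01 in subcluster 1, 0.767 in subcluster 2 and 0.970 in subcluster 5, and 0.888 (0.872 to 0.905) in the border-associated macrophages. The list was at 7971 and 7916 CPM in subcluster 1, at 18417 and 16498 CPM in subcluster 2 and at 31581 and 34105 CPM in subcluster 5, so its level differed more between these subclusters, which were made with such genes, than between the libraries.

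Among the genes of energy use, hexokinase 2 (Hk2) was at 264 and 378 CPM (1.43, 1.27 to 1.61), and it gave 1.37, 1.38 and 1.91 in subclusters 1, 2 and 5. In the border-associated macrophages it was 87.6 and 113 CPM (1.29, 1.15 to 1.45). The glycolysis list as a whole had a ratio of 0.995 with none of 16 called, and Gapdh was 0.912 (0.837 to 0.994). Oxidative phosphorylation genes summed to 5988 and 5731 CPM (0.957) with none of 26 called. Ribosomal protein genes summed to 38003 and 40597 CPM (1.07) with none of 23 called. Rps29 was at 3593 and 4938 CPM (1.37, 1.33 to 1.42) and Rpl41 at 1968 and 2441 CPM (1.24, 1.19 to 1.30). The border-associated macrophages gave 1.29 (1.27 to 1.30) for Rps29 and 1.245 (1.22 to 1.27) for Rpl41. Hk2, Rps29 and Rpl41 were thus higher in the homozygous-labelled library in both kinds of macrophage. Trophic factor genes gave 0.916 with none of 8 called, and progranulin (Grn), a growth factor of the lysosome, was at 862 and 943 CPM (1.09, 1.02 to 1.17).

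At a fixed depth the cells of the libraries overlapped widely. Every cell was thinned to 1000 UMIs, which left none out. The 25 identity genes then had a median of 113 UMIs per cell in the heterozygous-labelled microglia-like cells, with 5th and 95th percentiles of 76.0 and 159, and 106 in the homozygous-labelled cells, with 63.0 and 152. Disease-associated genes had medians of 24 and 25 UMIs, immediate-early genes 13 and 12, and lysosomal genes 39 and 40. For these lists the spread among cells of 1 library was many times the difference between the medians.

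**Figure D4:**
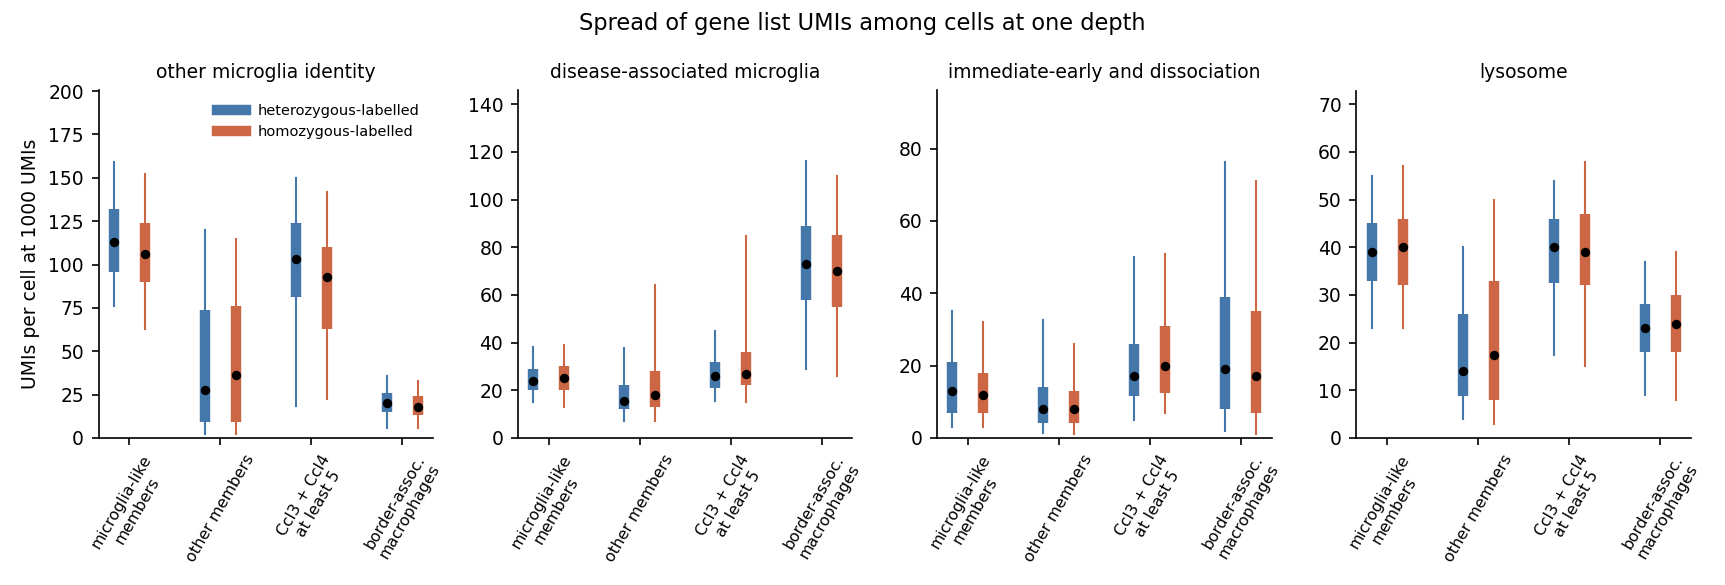
UMIs per cell of 4 gene lists after thinning each cell to 1000 UMIs, by library and group of cells: points are medians, thick bars the middle 50% of cells and thin lines the 5th to 95th percentile. The microglia-like members of both libraries overlap in each list, and the border-associated macrophages lie lower for identity genes (medians of 20 and 18) and higher for disease-associated genes (73 and 70).

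Beside microglia that passed every criterion but had at least 5 UMIs of Ccl3 and Ccl4 (91 and 143 cells), the members were lower in 15 of 25 measured immediate-early genes, 2 of 7 class II genes and 2 of 11 class I genes, with none of these higher. For the microglia-like members the counts were 6 of 23, 4 of 6 and 0 of 9. The UMI limit was applied over both groups of cells together, so a gene high in 1 group alone could pass. Of the class II genes called lower, H2-Aa, H2-Eb1 and H2-Ab1 had 59, 44 and 83 UMIs in the microglia-like members. The cells with at least 5 UMIs of Ccl3 and Ccl4 had 536, 365 and 426. These genes were not measured in the microglia-like members by themselves. The rule itself made this split, so all values are a description. The chemokine-high cells were not sorted by subcluster, and doublets were called in 5.49% and 11.2% of them. They were also deeper, with medians of 4080 and 4444 UMIs against 2473 and 2863 in the microglia-like members. The part of depth in the split was not tested. Over all members, 379 of 5644 genes were at least 1.5-fold higher in both libraries (6.72%) and 121 lower (2.14%), and for the microglia-like members 13 of 3438 were higher (0.378%) and 58 lower (1.69%). Cd74 was at 47.4 and 68.3 CPM in the microglia-like members and at 892 and 1013 CPM in the chemokine-high cells, but few cells carried this gap. With each cell thinned to 1000 UMIs, 5% of the chemokine-high cells held 72.7% and 77.9% of their class II UMIs. The median cell had 0 in both groups, and 40.7% and 42.0% of chemokine-high cells had a class II UMI against 39.0% and 41.2% of the microglia-like members. Atf3, an early stress factor, read 136 and 132 CPM against 417 and 636 CPM, and the lipase Lpl 30.2 and 37.2 CPM against 128 and 137 CPM. Apoe read 871 and 971 CPM against 2001 and 6383 CPM. Ttr read 4091 and 2392 CPM against 18655 and 22283 CPM, again through few cells. After thinning, the median cell had 4 and 2 choroid plexus UMIs in both groups, and 5% of the chemokine-high cells held 39.5% and 69.0% of theirs. Among the few genes higher in the microglia-like members were the kinase Taok2 (54.2 and 61.3 CPM against 29.8 and 31.7) and the integrin Itga9 (61.0 and 59.5 against 25.5 and 36.4).

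Beside the border-associated macrophages of the same libraries (1355 and 1261 cells, chosen by macrophage genes and few microglial ones), the microglia-like members looked as the rule made them. Of 8542 genes 1429 were at least 1.5-fold higher in all members in both libraries (16.7%) and 758 lower (8.87%), and for the microglia-like members 1108 of 7501 were higher (14.8%) and 1176 lower (15.7%). Sall1, of the rule, was at 361 and 372 CPM against 1.24 and 1.30 CPM. Genes outside the rule with wide ratios were Ecscr (424 and 305 CPM against 3.00 and 1.95), the adenosine receptor Adora3 (130 and 129 against 0.177 and 0.975), the transcription factor Sall3 (142 and 157 against 0.883 and 1.62) and Slc2a5 (242 and 192 against 1.59 and 2.92). Of the 25 other identity genes 24 were higher and none lower. In the other direction, the coagulation factor F13a1 was at 4.93 and 6.56 CPM against 1012 and 973 CPM, and the chemokine Ccl7 at 6.77 and 7.44 CPM against 986 and 1175 CPM. Interferon genes were lower in the microglia-like members in 20 of 20 measured, such as Ifitm3 at 57.9 and 62.6 CPM against 1290 and 1065 CPM. In this comparison the UMI limit was applied over both groups of cells, so a gene high in 1 group alone could pass. Only 5 interferon genes were measured in the microglia-like members by themselves, and 24 in the macrophages. The count of 20 is therefore a description. Apoe was at 871 and 971 CPM against 33563 and 29251 CPM. Oxidative phosphorylation genes were lower in 13 of 26.

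**Figure D5:**
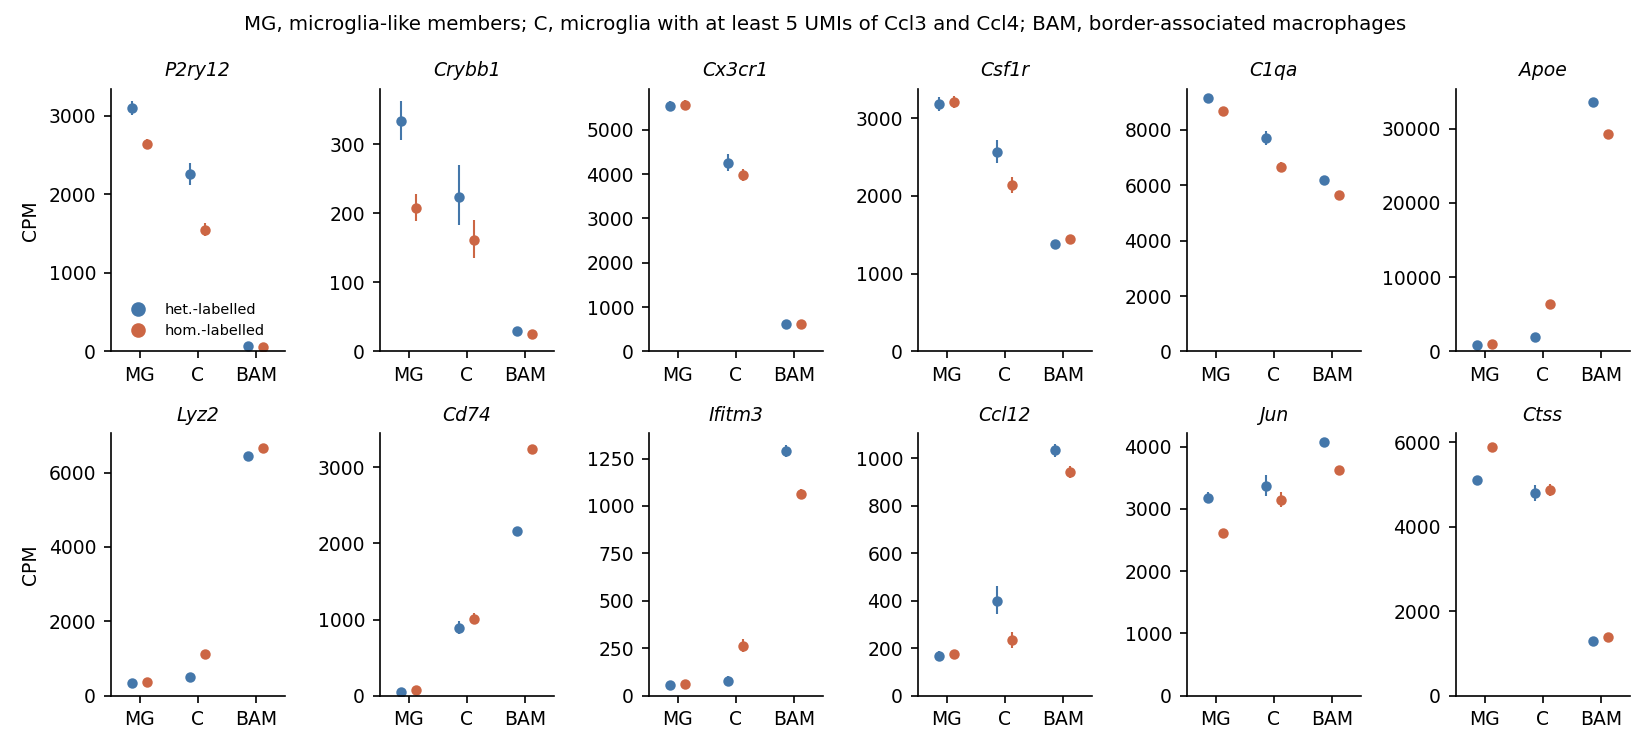
CPM with exact Poisson 95% intervals of 12 genes in the heterozygous-labelled (blue) and homozygous-labelled (orange) library, in the microglia-like members (MG), the cells with at least 5 UMIs of Ccl3 and Ccl4 (C) and the border-associated macrophages (BAM). P2ry12 and Cx3cr1 step down from MG to BAM, Cd74 and Apoe step up, and Csf1r is level between the libraries in MG.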

How the data were processed

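The values in the authors' matrices are counts of UMIs for each gene in each barcode. Cell Ranger 5.0.0 made them, per the file headers, on the builds GRCm38.p6 and mm10 per the submitters' processing notes. Results on some genes are not reported here. Their cell calling and any doublet removal are not stated there; each barcode has at least 500 UMIs. The members and gene lists were chosen with earlier results of these data known. Counts were read with Python 3.11.15 and scipy 1.17.1, summed over cells and scaled to CPM; of 25827 genes, a duplicated symbol kept its first row. Members were log-normalized to 10000 UMIs and clustered with scanpy 1.11.5 (2000 variable genes, 20 components, 15 neighbours, Leiden resolution 0.5). A subcluster was other-led when at least 2 markers of another cell type stood among its 50 leading genes. Red blood cell markers were not counted for this. Scrublet was run with an expected rate of 10%, and its calls were kept in unless stated. Named genes were, for each list, the called genes (up to 6) and the 3 with the highest CPM, plus the 10 called higher and lower ranked by the interval bound nearest to 1, the 10 widest for each group of cells, and the 5 leading genes of each subcluster. Ecscr, Fcrls, Cd74 in the microglia-like members, Clec7a, Axl and Il34 fall partly outside it and were chosen after their values were seen. edgeR 4.0.16 (R 4.3.3) gave TMM factors for 1 alternative. No count model was fitted, since each genotype has 1 library. The gene comparison was tested on simulated data. These were Poisson sums without spread between cells, so they do not check genes with many of their UMIs in 1 cell. Thinning used a fixed seed, and 506 of 747 and 831 of 1051 members kept at least 2000 UMIs in the alternative thinned to that depth.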

Additional observations from a re-analysis of the deposited data

Results flagged for a closer look

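2 gene lists moved apart between the microglia-like members and the border-associated macrophages, with an interval below 1 in the first and above 1 in the second. Purinergic receptors and ectoenzymes had a homozygous-over-heterozygous ratio of 0.899 in the microglia-like members and of 1.084 in the macrophages. Lysosomal genes gave 0.9824 and 1.025. The difference between the groups was not tested, since each library is a single sample. P2ry12, which carries most of the purinergic sum in microglia, is a gene of the selection rule.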

How the results depend on the processing

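No paired analysis was possible because each genotype has 1 library and the labels give no replicate numbers. 3 settings were added after seeing the data: microglia-like subclusters only, the rule applied to cells thinned to 1000 UMIs, and cells over 5% haemoglobin left out. Under other settings 171 summary values stayed near the main one, 50 moved and 1 changed sign. For all members, the main counts of 666 higher and 163 lower genes became 301 and 66 at a mitochondrial limit of 5%, 1220 and 283 at 30 UMIs per gene, 174 and 66 at 300 UMIs per gene, 238 and 55 at a ratio of 2, 121 and 54 with cells thinned to 2000 UMIs, and 58 and 62 in the microglia-like subclusters. Higher genes numbered 385 at a marker sum of 5, 390 with Cx3cr1, Fcrls, Gpr34 and Olfml3 as markers, 404 with no UMI of the excluded genes, and 175 under the rule on thinned cells, and lower genes 248 with TMM. In the microglia-like members, 58 and 62 became 178 and 169 at 30 UMIs, 6 and 6 at 300 UMIs, and 8 and 4 at a ratio of 2. Higher genes there numbered 35 when thinned and 131 with equal weight per cell. The median log2 ratio of the identity genes in all members was -0.0974 at a limit of 20%, -0.03876 at a marker sum of 5, -0.06804 with the other markers, 0.0065 with no UMI of the excluded genes (the sign changed), -0.25 with TMM and -0.0415 on thinned cells. That of other chemokines was 0.0672 at 5%, 0.0807 without doublet calls, 0.0826 with TMM, 0.0845 in the microglia-like subclusters and 0.0167 on thinned cells. The median of all genes changed sign at 5% (-0.0152), when thinned to 2000 UMIs (-0.0121), with TMM (-0.0352), in the microglia-like subclusters (-0.0284) and, for these, with equal weight per cell (0.0058). The sign changed for Spp1 at a marker sum of 5 (-0.0464) and on thinned cells (-1.11), for Isg15 on thinned cells (-1.30) and in the microglia-like subclusters (-0.0274), and in the microglia-like members for Cst3 (0.0041), Trem2 (0.0019), Tyrobp (0.01829) and Cox4i1 (0.0437) thinned to 2000 UMIs and for Cst3 (0.0067) and Tyrobp (0.0223) at 2000 UMIs per cell. The member share was 93.7% and 92.8% thinned to 2000 UMIs, 97.9% and 95.5% on thinned cells, 79.8% and 76.0% at a chemokine limit of 2, 91.7% with the other markers and 86.4% at 2000 UMIs per cell (the last 2 heterozygous-labelled). Against chemokine-high cells, 38 genes were higher and 29 lower when thinned, and 13 and 58 in the microglia-like subclusters; against border-associated macrophages, 614 and 485 when thinned, and 1176 lower in the microglia-like subclusters. The cause of these changes was not tested, apart from the count limits, which change how many genes are measured. Il34 in all members and Clec7a and Axl in the microglia-like members had counts too low for a call. Whether depth or low expression lay behind this was not tested.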
